A study of Mus musculus with 30 samples.

Results

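Disease-associated microglia (DAM) are a state that microglia enter around amyloid plaques, dying neurons and damaged myelin, and 10 of the genes best known to mark it were followed here: Apoe, Lpl, Cst7, Itgax, Spp1, Clec7a, Axl, Gpnmb, Cd9 and Igf1. They were taken by gene symbol from a count table of 51752 genes, and all 10 were listed. The samples came from mice in which interleukin-34 (IL-34), which signals through the Csf1r product, was removed in separate ways. In the genotype experiment 3 Il34 knockout (KO) mice were compared with 4 Il34 heterozygotes (Het), so the controls carried 1 intact copy of the gene. In the antibody experiment 4 wild-type mice given anti-IL34 were compared with 4 wild-type mice given anti-gp120, an antibody against a viral protein that served as the control. Each mouse was perfused with saline and supplied 2 libraries: whole forebrain of 1 hemisphere, and CD11b-positive cells of the other, isolated on beads with an antibody to a surface protein of microglia and other myeloid cells. Het and anti-gp120 had 2 males and 2 females each. KO had 1 male (animal 3) and 2 females, and anti-IL34 had 3 males and 1 female (animal 11). The ages of the mice and the dose and timing of the antibodies are not in the labels, and no disease model was part of the design. The 30 libraries held 15.1 to 75.2 M counts each.

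The DAM state is usually described in steps. Microglia first lose part of their homeostatic expression and gain Apoe and Tyrobp, and a later step, which needs the lipid-sensing receptor Trem2, brings in Lpl, Cst7, Itgax, Clec7a, Axl, Spp1, Cd9 and Gpnmb. Several of these genes also mark microglia of early postnatal white matter, and some are made by other brain cells: Apoe is abundant in astrocytes, Lpl and Igf1 are made by some neurons, Axl by astrocytes and vascular cells, Spp1 by some neurons, and Cd9 by oligodendrocyte lineage cells. In whole tissue a gene's level therefore need not follow microglia, whereas Cst7, Itgax and Clec7a are close to restricted to myeloid cells in brain.

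The targeted gene and its receptor were read first. In forebrain Il34 stood at 21.5 ± 2.38 CPM (counts per 1 M counts of a library, scaled by TMM within a tissue; SD, n = 4) in Het and 7.73 ± 0.976 CPM (n = 3) in KO, and Csf1r at 45.9 ± 2.54 and 16.9 ± 1.49 CPM. In isolates Il34 was low, at 4.82 to 9.97 CPM in Het and 5.28 to 6.75 CPM in KO, so that the arms overlapped and the isolates do not check the genotype labels. With the antibody forebrain Csf1r stood at 87.0 ± 15.1 CPM with anti-gp120 and 36.6 ± 4.86 CPM with anti-IL34. For 18 homeostatic microglia genes the median log2 fold changes were -1.34 in KO forebrain (17 genes lower, edgeR adjusted p under 0.05), -1.57 in KO isolates (18 lower), -1.42 in anti-IL34 forebrain (16 lower) and -1.07 in anti-IL34 isolates (9 lower). Of all genes tested, 0.62%, 5.37%, 0.717% and 0.626% passed in either direction in the same order. Calls in isolates moved when a single animal was left out. In the genotype isolates 0 genes passed without Het 20, Het 23, KO 3, KO 6 or KO 24. In the antibody isolates 0 passed without anti-gp120 7 or anti-IL34 10. Bulk RNA cannot tell fewer microglia from less RNA of these genes per cell. The make-up of the isolates differed between arms as well: the summed level of 10 astrocyte markers ran from 3148 to 11288 CPM in Het, 13176 to 15462 CPM in KO, 4835 to 18008 CPM with anti-gp120 and 10435 to 18893 CPM with anti-IL34. The part of these differences in the values below was not tested.

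In GRCm38 Apoe lies at chr7:19696109-19699188 (minus strand), Lpl at chr8:68880491-68907448 (plus), Axl at chr7:25757273-25788705 (minus), Clec7a at chr6:129461591-129472779 (minus) and Itgax at chr7:128129547-128150657 (plus). Spp1 lies at chr5:104435118-104441050 (plus), Igf1 at chr10:87858265-87937042 (plus), Cst7 at chr2:150570415-150578944 (plus), Gpnmb at chr6:49036546-49070929 (plus) and Cd9 at chr6:125460266-125494791 (minus). Counts are over whole genes. Spp1 overlaps Gm42793, Cd9 overlaps Gm28809 and Gm26728, and Igf1 overlaps its antisense gene Igf1os, so the counts of these 3 may hold reads of a neighbour or lose reads to it.

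RefSeq promoter windows of GRCm38.p6 were at hand for 9 of the 10 genes, all but Lpl. Those of 5 genes are shown: Axl and Apoe, among the genes that did not go with the others between isolates, and Itgax, Cst7 and Spp1 as 3 of the genes that varied together between isolates. Clec7a went with Cst7 (r 0.83) and Itgax (r 0.80) as well, and its window, not printed, held no match to the AP-1 or PU.1 letters. Gpnmb (r -0.55 to 0.39) and Igf1 (r -0.11 to 0.39) did not go closely with the others, and their windows, not printed, held the AP-1 letters. Each line holds the 250 bases before the start site, 5′ to 3′ on the gene's strand. The stretches are chr7:25788734-25788983 (minus strand), chr7:19699189-19699438 (minus), chr7:128129300-128129549 (plus), chr2:150570165-150570414 (plus) and chr5:104434861-104435110 (plus). Capitals mark exact matches, on either strand, to the motifs searched.
Axl: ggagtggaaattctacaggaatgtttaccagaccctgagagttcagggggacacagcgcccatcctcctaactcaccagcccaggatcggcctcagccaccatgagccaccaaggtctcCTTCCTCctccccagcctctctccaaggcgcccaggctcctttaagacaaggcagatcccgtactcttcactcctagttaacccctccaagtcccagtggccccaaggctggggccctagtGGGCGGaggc
Apoe: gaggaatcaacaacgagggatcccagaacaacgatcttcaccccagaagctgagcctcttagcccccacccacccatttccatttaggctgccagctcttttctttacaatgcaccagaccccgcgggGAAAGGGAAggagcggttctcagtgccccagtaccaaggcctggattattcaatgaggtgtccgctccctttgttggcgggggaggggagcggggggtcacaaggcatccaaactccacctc
Itgax: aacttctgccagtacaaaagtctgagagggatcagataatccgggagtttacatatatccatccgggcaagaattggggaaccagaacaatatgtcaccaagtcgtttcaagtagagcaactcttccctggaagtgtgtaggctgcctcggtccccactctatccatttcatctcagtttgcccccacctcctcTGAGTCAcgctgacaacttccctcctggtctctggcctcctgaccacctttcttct
Cst7: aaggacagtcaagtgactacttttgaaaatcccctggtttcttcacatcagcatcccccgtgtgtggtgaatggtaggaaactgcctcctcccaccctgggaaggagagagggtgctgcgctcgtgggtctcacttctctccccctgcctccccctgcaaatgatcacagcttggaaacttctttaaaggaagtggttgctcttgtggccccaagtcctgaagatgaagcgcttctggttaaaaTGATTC
Spp1: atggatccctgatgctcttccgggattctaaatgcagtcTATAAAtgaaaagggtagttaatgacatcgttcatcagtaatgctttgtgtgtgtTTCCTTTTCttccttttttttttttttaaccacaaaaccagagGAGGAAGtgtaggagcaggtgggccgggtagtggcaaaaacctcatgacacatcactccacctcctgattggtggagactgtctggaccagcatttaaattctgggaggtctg
In the Axl window the capitals are the other-strand reading of the PU.1 core GAGGAAG, PU.1 being the product of Spi1 and a factor of myeloid genes, and an SP1 box GGGCGG, 10 bases before the start site. Apoe holds the letters GAAANNGAA, the core of an interferon response element, 122 bases before its start. Itgax and Cst7 hold the AP-1 letters TGANTCA, 56 and 6 bases before the start, the Cst7 match running 1 base past it. Spp1 holds a PU.1 core, the other-strand reading of the interferon response element, and the letters TATAAA, 211 bases before the start. Over the full windows of 300 bases, 50 of them after the start, the PU.1 core was found in 3 of 9 genes (Spp1, Axl, Igf1) and in 13.6% of all 32851 windows of the table. The AP-1 letters were found in 4 of 9 (Cst7, Itgax, Gpnmb, Igf1) and 7.81% of all windows, and the interferon response element in 3 of 9 (Apoe, Spp1, Cd9) and 8.56%. The SP1 box was in 2 of 9 against 35.7% and the letters TATAAA in 2 of 9 against 13.6%. The E-box CACGTG and the M-box TCATGTG, the latter bound by Mitf and its relatives, were in 0 of 9 against 7.15% and 3.77%. A match is a run of letters, not a measured site.

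How far the CD11b isolation enriched each gene was read in the 8 control animals. Of the 10 genes 9 were higher in the isolates than in forebrain at an edgeR adjusted p under 0.05, where 40.5% of all 19952 genes tested were higher and 83.5% differed in either direction. Clec7a, which encodes the beta-glucan receptor Dectin-1, was 133-fold higher (log2 difference 7.05, SE 0.278). Cst7, which encodes cystatin F, an inhibitor of lysosomal cysteine proteases, was 97.6-fold higher (6.61, SE 0.421), and Itgax, which encodes the integrin CD11c, 64.1-fold (6.00, SE 0.267). The 18 homeostatic genes had a median log2 difference of 5.72, and these 3 lay at or above it. In whole forebrain they were close to undetected, with 0 to 6 counts of Cst7, 3 to 35 of Itgax and 3 to 36 of Clec7a per library.

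The other 7 genes lay below that list's median. Cd9, a tetraspanin, was 8.80-fold higher in the isolates (log2 difference 3.14, SE 0.118), Spp1, which encodes osteopontin, 5.19-fold (2.38, SE 0.487), Axl 3.42-fold (1.78, SE 0.0736) and Apoe 3.17-fold (1.67, SE 0.129). Gpnmb, a glycoprotein of lysosome-rich phagocytes, was 2.17-fold higher (1.12, SE 0.243). Lpl, which encodes lipoprotein lipase, was 1.20-fold higher (0.27, SE 0.0913, edgeR adjusted p 0.0129). Igf1 did not pass (0.27, SE 0.176, edgeR adjusted p 0.168).

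**Figure D1:**
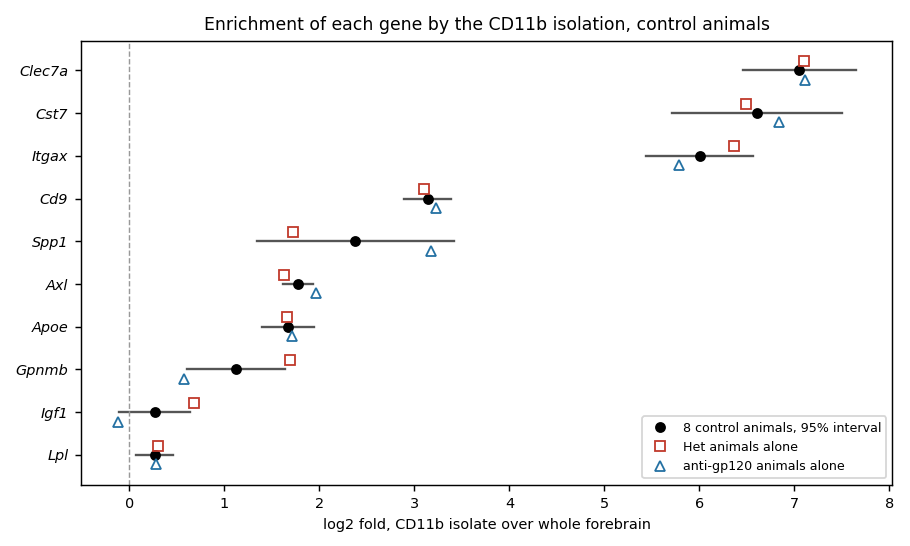
Log2 fold of each gene in CD11b isolates over whole forebrain (x axis), 1 row per gene. Black points are the fit over the 8 control animals with 95% intervals, squares the Het animals alone and triangles the anti-gp120 animals alone; Clec7a, Cst7 and Itgax lie at 6.00 to 7.05, and Igf1 and Lpl near 0.

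The experiments were also read apart, since they had their own controls. In Het animals alone 9 of the 10 genes passed, and in anti-gp120 animals alone 7 did. Over all genes 14812 and 13746 passed in the same order, in either direction. The fit over all controls had 16663 of 19952 (83.5%). The number of genes tested in Het or anti-gp120 animals alone is not given here. The 9 and the 7 are therefore not read as particular to the 10 genes. Igf1 was higher in the isolates of Het animals (0.68, edgeR adjusted p 0.000640) and lower, though not past the threshold, in those of anti-gp120 animals (-0.12, edgeR adjusted p 0.659). Gpnmb stood at 1.69 in Het (edgeR adjusted p 0.000225) and 0.58 with anti-gp120 (edgeR adjusted p 0.105), and Spp1 at 1.72 and 3.17, both past the threshold. Lpl passed in neither alone (edgeR adjusted p 0.0727 and 0.0920), and over all controls it missed the threshold without Het animal 21 (edgeR adjusted p 0.0562) or without anti-gp120 animal 1 (edgeR adjusted p 0.0570). These within-experiment fits were added after the data were seen.

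Between genes, levels can be set side by side only per length, here as CPM per kilobase (kb) of annotated exon. In Het isolates the order was Apoe (714), Cd9 (153), Axl (21.8), Clec7a (17.6), Spp1 (13.95), Lpl (4.78), Igf1 (4.32), Cst7 (3.46), Itgax (3.13) and Gpnmb (1.19 CPM per kb). In anti-gp120 isolates it was Apoe (824), Cd9 (150.5), Spp1 (26.8), Axl (26.4), Clec7a (16.6), Cst7 (5.35), Itgax (3.99), Lpl (3.31), Igf1 (2.46) and Gpnmb (0.800). In both sets Apoe and Cd9 led and Gpnmb was last. On this scale the Het libraries ran from 20.7 to 22.8 CPM per kb for Axl, 10.4 to 24.3 for Clec7a and 8.93 to 18.6 for Spp1, so that Axl overlapped Clec7a and Clec7a overlapped Spp1. Lpl overlapped Igf1, Igf1 overlapped Cst7 and Cst7 overlapped Itgax. Every library of Apoe, Cd9, Spp1 and Itgax lay above every library of the next gene in the order. With anti-gp120 Spp1, Axl and Clec7a overlapped in turn, as did Cst7, Itgax, Lpl and Igf1, and the other neighbours were apart. For scale, Csf1r stood at 666 CPM per kb in Het isolates. In Het forebrain Apoe was at 239.8 CPM per kb, Cd9 at 19.0 and Axl at 7.47, while Clec7a, Cst7 and Itgax were at 0.136, 0.0381 and 0.0381.

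None of the 10 genes passed the threshold between arms in either tissue by edgeR, in 4 comparisons. All 10 were tested in both sets of isolates, 9 in forebrain of the genotype experiment (not Cst7) and 7 in forebrain of the antibody experiment (not Cst7, Itgax or Clec7a), where counts were too low. In the order KO forebrain, KO isolates, anti-IL34 forebrain and anti-IL34 isolates, 4, 3, 1 and 2 genes had an unadjusted p under 0.05, beside 7.45%, 32.6%, 4.86% and 25.9% of all genes. DESeq2 called 1, 1, 0 and 2, beside 1.03%, 22.2%, 1.16% and 12.5% of the genes it gave an adjusted p. Over all genes tested edgeR called 0.62%, 5.37%, 0.717% and 0.626% in the same order. The arms did not overlap for 2 of 9, 3 of 10, 1 of 7 and 1 of 10 genes, where over all genes the shares were 8.95%, 39.8%, 3.29% and 15%. The intervals of the genes follow, since a p that misses the threshold does not show that a gene stayed level.

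**Figure D2:**
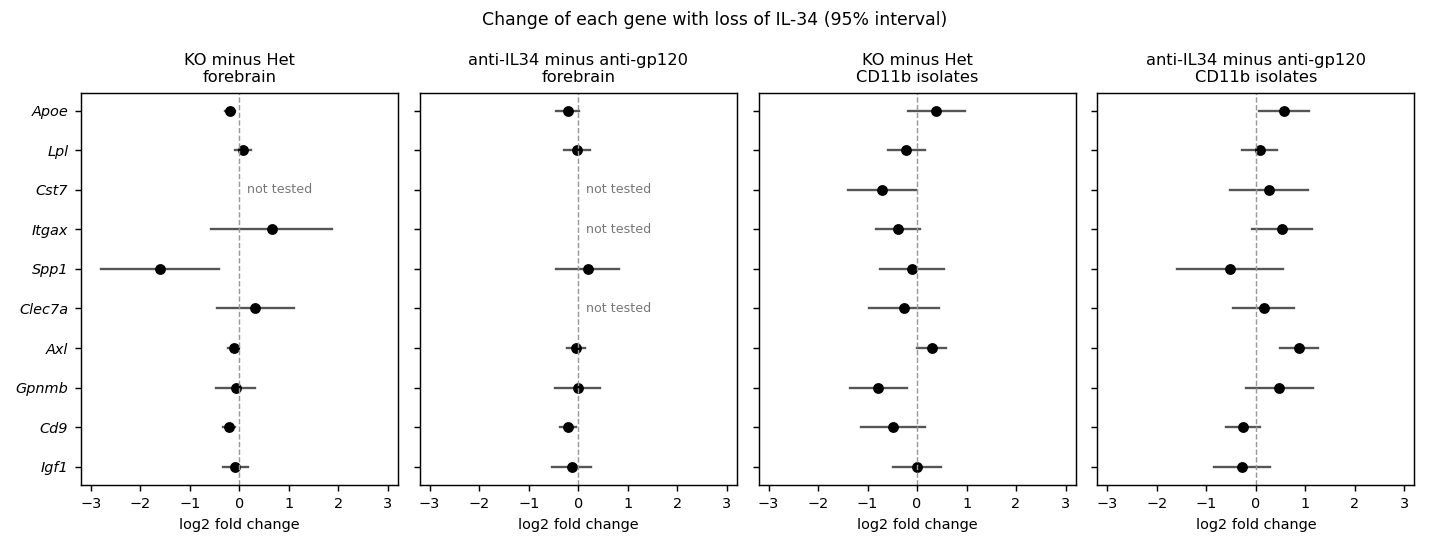
Log2 fold change (x axis) of each gene with loss of IL-34, with 95% intervals, in the 4 comparisons of arms; genes with too few counts are marked as not tested. Axl with anti-IL34 in the isolates (0.87) lies farthest above 0 among intervals that do not reach 0.

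Apoe and Lpl handle lipid: apolipoprotein E carries cholesterol and phospholipid to receptors of the LDL receptor family, and lipoprotein lipase releases fatty acids from lipoproteins. In the isolates of the antibody experiment Apoe stood at 1537, 1644, 1601 and 2268 CPM with anti-gp120 (animals 1, 7, 8 and 15) and at 2661, 2361, 2226 and 2887 CPM with anti-IL34 (animals 2, 10, 11 and 24). The arms overlapped only through anti-gp120 animal 15, which lay above anti-IL34 animal 11. The log2 fold change was 0.56 (SE 0.218, 95% interval 0.06 to 1.06, edgeR adjusted p 0.174). Without anti-gp120 animal 15 it was 0.66 and passed (edgeR adjusted p 0.0143), as did 6905 of all genes in place of 110, and DESeq2 called it too (adjusted p 0.0394).

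In the genotype experiment isolate Apoe was 1847, 1466, 1224 and 1565 CPM in Het (animals 1, 20, 21 and 23) and 2044, 2057 and 1909 CPM in KO (animals 3, 6 and 24). Every KO library lay above every Het library, and the difference did not pass (0.39, SE 0.241, interval -0.19 to 0.96, edgeR adjusted p 0.284). Lpl overlapped between arms in both sets. It was 43.1, 32.4, 33.9 and 29.4 CPM with anti-gp120 against 30.1, 38.2, 43.0 and 33.0 CPM with anti-IL34 (0.08, interval -0.28 to 0.43). It stood at 50.1 ± 9.35 CPM in Het and 42.8 ± 3.39 CPM in KO (-0.22, interval -0.59 to 0.15).

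**Figure D3:**
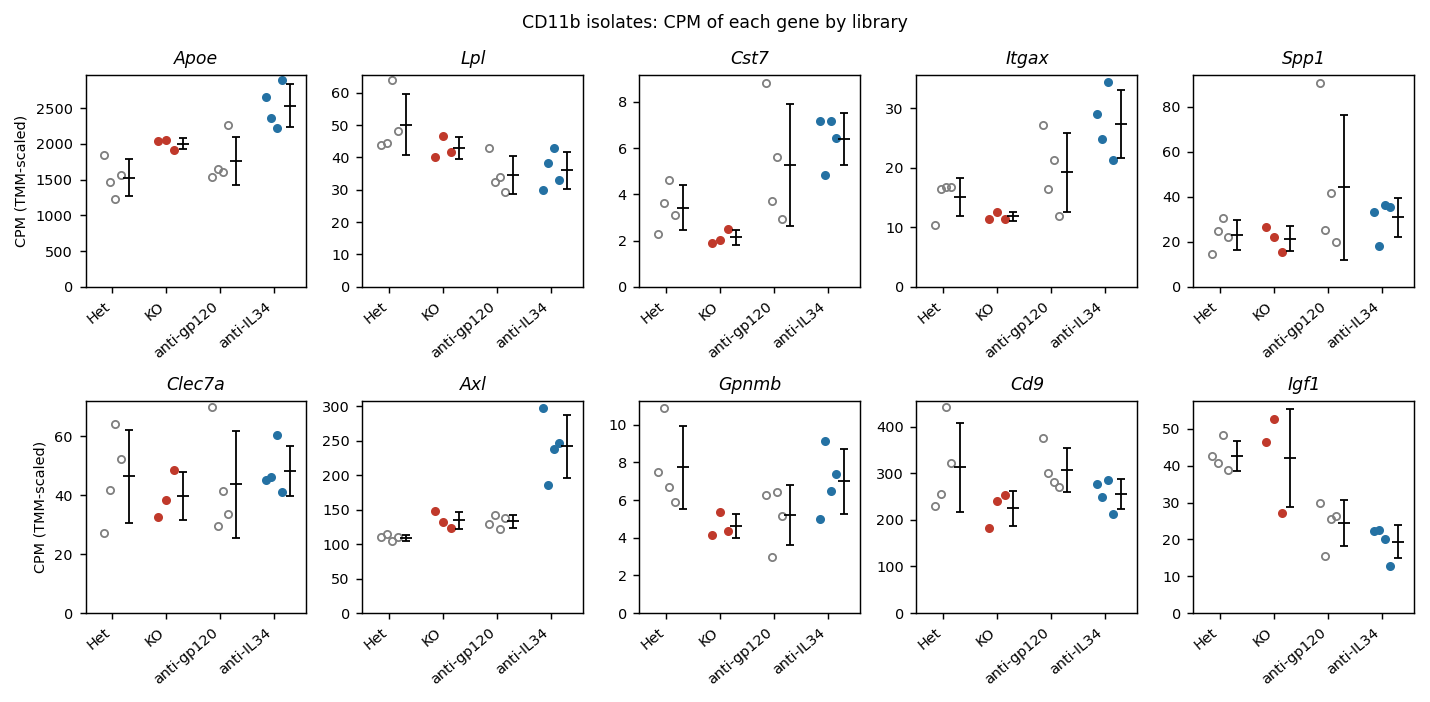
CPM (y axis, linear, from 0) of the 10 genes in each CD11b isolate by arm; open circles are control arms, filled circles KO or anti-IL34, and bars the mean ± SD. Axl with anti-IL34 (186 to 298 CPM) lies apart from anti-gp120 (122 to 143 CPM), and Spp1 has 1 high library, anti-gp120 animal 1.

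Axl, Clec7a and Itgax are receptors: AXL is a kinase of the TAM family that binds the bridging protein GAS6 on dying cells, Dectin-1 signals through SYK and CARD9, and CD11c pairs with the integrin chain encoded by Itgb2 in complement receptor 4. Axl came nearest to a call. With anti-gp120 it stood at 129.6, 143, 122 and 138 CPM in the isolates, and with anti-IL34 at 298, 186, 238 and 246 CPM. All 4 anti-IL34 libraries lay above all 4 controls, a 1.83-fold difference (log2 fold change 0.87, SE 0.168, interval 0.48 to 1.26) with an unadjusted edgeR p of 0.000853 and an adjusted p of 0.0566. It was the 265th gene by p of 17570. Over 13 alternatives the adjusted p ran from 0.000248 to 0.228, was under the threshold in 5, and the log2 fold change stayed between 0.74 and 0.98.

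In KO isolates Axl was also above Het in every library, at 148, 132 and 124 CPM against 109.9, 115, 104 and 110.1 CPM, a smaller difference of 0.29 on the log2 scale (SE 0.121, interval 0.01 to 0.58, edgeR adjusted p 0.149). Interferon response genes are given beside Axl because their level differed between the antibody arms. For the 12 on the list the median was 2.22 (log2 fold change) in anti-IL34 isolates, with 12 of 12 above 0 and 0 past the threshold, and a summed level of 111.4 to 379 CPM with anti-gp120 against 426 to 1209.5 CPM with anti-IL34. By animal the sum was 1209.5 CPM in anti-IL34 animal 2, 1027 in animal 24, 703 in animal 11 and 426 in animal 10. The Axl values ranked these animals in the same order. Over all 15 isolates, as deviations from the arm means, the interferon list had r 0.31 and rho 0.11 with Axl, against r 0.71 with Spp1 and 0.68 with Cst7. Without the 2 libraries farthest from the median of the list mean, r was 0.50 with Axl, 0.59 with Spp1 and 0.61 with Cst7. In KO isolates the list median was -0.58. In anti-IL34 forebrain 12 of 12 interferon genes rose (median 2.28) while Axl did not pass there (-0.04, interval -0.22 to 0.13). The part of the interferon response in the Axl values was not tested.

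Choroid plexus markers ran opposite to Axl within that arm, and over all 15 isolates their arm-centred mean had r -0.80 with Axl. Their summed level was 10.3 CPM in anti-IL34 animal 2, 39.95 in animal 24, 574 in animal 11 and 2176 CPM in animal 10, while in all anti-gp120 isolates it was 6.13 to 11.2 CPM. All isolates of the genotype experiment held these markers, at 1629 to 3860 CPM in Het and 1124 to 3180 CPM in KO. Their part was not tested either.

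Clec7a and Itgax had wider spreads. Clec7a stood at 69.9, 29.6, 41.6 and 33.8 CPM with anti-gp120 and 45.1, 46.1, 60.6 and 41.0 CPM with anti-IL34, arms that overlapped (0.16, interval -0.46 to 0.78). In the genotype experiment it was 27.3 to 64.2 CPM in Het and 32.6 to 48.7 CPM in KO (-0.27, interval -0.98 to 0.45). Itgax ran higher with the antibody, at 29.0, 24.9, 34.4 and 21.2 CPM against 27.2, 16.4, 21.3 and 11.9 CPM, without passing (0.53, interval -0.07 to 1.13, edgeR adjusted p 0.222). The summed level of neutrophil and monocyte markers was 47.2 to 325 CPM with anti-gp120 and 173 to 463 CPM with anti-IL34, and its part in the Itgax values was not tested. In KO isolates it was 11.4, 12.6 and 11.4 CPM against 10.3, 16.3, 16.7 and 16.8 CPM in Het (-0.39, interval -0.83 to 0.05, edgeR adjusted p 0.185). Het animal 1 was the low library of its arm and also had the highest astrocyte sum of the Het isolates, and without it Itgax passed as lower in KO (-0.49, edgeR adjusted p 0.0330), as did 5756 of all genes in place of 976.

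Spp1 and Igf1 are secreted: osteopontin binds integrins and CD44, and insulin-like growth factor 1 supports neurons and myelin-forming cells. Spp1 with anti-gp120 stood at 90.3 CPM in animal 1 and at 25.1, 41.7 and 19.7 CPM in the other 3, against 33.3, 18.0, 36.5 and 35.3 CPM with anti-IL34. The log2 fold change was -0.52 (interval -1.59 to 0.56) and turned to 0.23 without anti-gp120 animal 1. In the genotype experiment Spp1 was 23.0 ± 6.64 CPM in Het and 21.3 ± 5.54 CPM in KO (-0.10, interval -0.75 to 0.55). Igf1 isolates stood at 42.8, 40.8, 48.5 and 38.9 CPM in Het and 46.6, 52.7 and 27.2 CPM in KO, a difference of -0.00 (interval -0.48 to 0.48). With the antibody Igf1 was 29.99, 15.5, 25.7 and 26.4 CPM in controls and 22.3, 22.4, 20.1 and 12.9 CPM in treated mice (-0.28, interval -0.84 to 0.29). The KO library with the low Igf1 value, animal 24, also had the lowest summed level of border-associated macrophage markers in its arm, at 586 CPM against 1093 and 1167 CPM. By arm the sum of these markers ran from 1271 to 1484 CPM in Het and 586 to 1167 CPM in KO. With the antibody it was 1109 to 1769 CPM for anti-gp120 and 573 to 840 CPM for anti-IL34. On this sum each loss arm lay wholly below its control. On the list's mean log2 CPM the arms overlapped, at 5.21 to 5.37 in Het and 4.31 to 5.39 in KO. For anti-gp120 and anti-IL34 the same mean was 4.75 to 5.52 and 4.33 to 4.84. The part of these markers in the Igf1 values was not tested.

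Gpnmb, Cst7 and Cd9 belong to the lysosome and the membrane. Gpnmb in KO isolates was 4.13, 5.37 and 4.39 CPM and in Het isolates 7.47, 10.9, 6.71 and 5.87 CPM. Every KO library lay below every Het library, with a log2 fold change of -0.78 (SE 0.241, interval -1.35 to -0.21, edgeR adjusted p 0.103), and DESeq2 called it lower (adjusted p 0.0258). With the antibody the sign was the other one, at 6.27, 2.97, 6.44 and 5.17 CPM in controls and 5.002, 9.15, 6.51 and 7.38 CPM in treated mice (0.47, interval -0.20 to 1.14). Cst7 stood at 2.30, 3.65, 4.61 and 3.11 CPM in Het and 1.89, 2.01 and 2.50 CPM in KO (-0.71, interval -1.40 to -0.01, edgeR adjusted p 0.149), and at 5.28 ± 2.63 CPM with anti-gp120 and 6.41 ± 1.12 CPM with anti-IL34 (0.26, interval -0.52 to 1.04). Cd9 was 313 ± 95.2 CPM in Het and 226 ± 37.7 CPM in KO (-0.49, interval -1.14 to 0.16) and 308 ± 47.1 and 256 ± 32.3 CPM in the antibody arms (-0.26, interval -0.59 to 0.08). It was the gene of this trio with the same sign in both experiments.

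In whole forebrain Cd9 was 38.7, 40.5, 38.5 and 37.3 CPM in Het and 34.0, 35.4 and 30.8 CPM in KO (-0.20, SE 0.0565, interval -0.33 to -0.08, edgeR adjusted p 0.256). With the antibody it was 36.5, 36.1, 36.7 and 35.2 CPM in controls and 34.7, 31.8, 27.6 and 32.4 CPM in treated mice (-0.21, SE 0.0739, interval -0.38 to -0.05, edgeR adjusted p 0.633). In both experiments every library of the loss arm lay below every control, and in neither did Cd9 pass. Of the 10 oligodendrocyte lineage markers, 5 were lower in KO forebrain (edgeR; list median -0.30) and 0 with the antibody (median -0.07). Their part in the Cd9 values was not tested.

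Forebrain Apoe was 525, 542, 490.3 and 493 CPM in Het and 438, 457 and 462 CPM in KO, with no overlap and a log2 fold change of -0.19 (SE 0.0461, interval -0.29 to -0.09, edgeR adjusted p 0.156). DESeq2 called it lower (adjusted p 0.0186), as did edgeR without a filter on low counts (adjusted p 0.00284). With the antibody it was 663, 651, 627 and 435 CPM in controls and 598, 503, 485 and 540.5 CPM in treated mice, arms that overlapped through anti-gp120 animal 15 (-0.21, interval -0.44 to 0.03, edgeR adjusted p 0.999).

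Forebrain Spp1 had 1 high library. Het animal 20 stood at 20.8 CPM beside 2.98, 6.09 and 3.14 CPM in the other Het libraries, and KO at 2.67, 2.76 and 3.11 CPM. The log2 fold change of -1.60 (interval -2.79 to -0.41, edgeR adjusted p 0.463) was -0.42 without that animal. Without Het animal 23 it was -2.04 and passed (edgeR adjusted p 0.0186). With the antibody Spp1 was 5.24 ± 2.00 CPM in controls and 6.24 ± 1.86 CPM in treated mice (0.19, interval -0.45 to 0.83).

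Axl, Lpl, Igf1 and Gpnmb showed small forebrain differences. Axl was 37.6 ± 1.76 CPM in Het and 34.3 ± 0.963 CPM in KO (-0.12, interval -0.22 to -0.01, edgeR adjusted p 0.626) and 37.8 ± 4.74 and 37.9 ± 4.02 CPM in the antibody arms. Lpl was 43.0 ± 3.86 and 44.8 ± 3.74 CPM, then 31.6 ± 3.64 and 31.0 ± 4.99 CPM. Igf1 was 28.3 ± 5.14 and 25.9 ± 3.17 CPM, then 29.5 ± 7.83 and 27.6 ± 5.49 CPM. Gpnmb was 2.52 ± 0.513 and 2.38 ± 0.174 CPM, then 3.84 ± 1.11 and 4.04 ± 0.828 CPM. All 4 sets of arms overlapped in both experiments. Clec7a and Itgax, at 0.481 ± 0.124 and 0.336 ± 0.206 CPM in KO against 0.359 ± 0.137 and 0.183 ± 0.105 CPM in Het, had intervals too wide to place them (0.32, interval -0.45 to 1.10, and 0.65, interval -0.57 to 1.87). In the antibody experiment both were untested, at 0.338 ± 0.129 and 0.5675 ± 0.210 CPM for Clec7a and 0.362 ± 0.139 and 0.603 ± 0.167 CPM for Itgax.

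**Figure D4:**
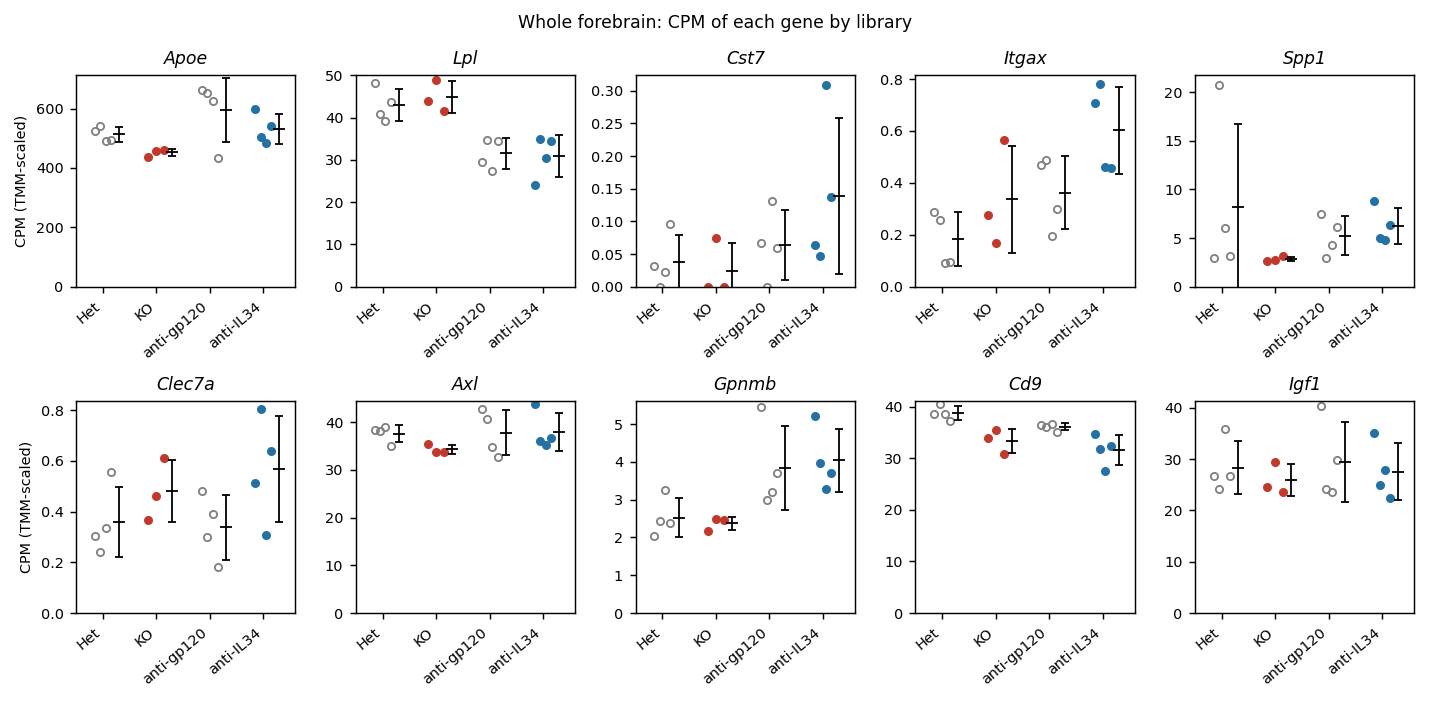
CPM (y axis, linear, from 0) of the 10 genes in each whole-forebrain library by arm, with symbols and bars as in the plot of the isolates. Cd9 lies lower in both loss arms with no overlap, Spp1 has 1 high Het library (20.8 CPM), and Cst7 stays under 0.31 CPM.

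Whether a gene's difference between arms itself differed between isolates and forebrain was tested as an interaction. By edgeR 0 of 10 genes passed in either experiment, with 2 and 2 at an unadjusted p under 0.05 and 2 and 2 by DESeq2, against 2.98% and 0.0924% of all genes called by edgeR and 31% and 21.1% at an unadjusted p under 0.05. DESeq2 called 21.2% and 8.86% of all genes. The 2 were Axl and Apoe each time. With the animal as a block, 0 of the 10 and 0 of all genes passed in either experiment. The Axl difference was greater in isolates by 0.44 in the genotype experiment (SE 0.115, interval 0.19 to 0.70, edgeR adjusted p 0.0609) and by 0.90 in the antibody experiment (SE 0.183, interval 0.51 to 1.29, edgeR adjusted p 0.0720). For Apoe the figures were 0.61 (SE 0.202, edgeR adjusted p 0.0949) and 0.76 (SE 0.233, edgeR adjusted p 0.167). Without anti-gp120 animal 15 both genes passed in the antibody experiment, at 0.95 for Axl and 0.94 for Apoe, and both passed in the genotype experiment without Het animal 1 or without Het animal 21. Calls over all genes moved along: from 17 to 5565 without anti-gp120 animal 15, and from 599 to 5688 and 3243 without Het animal 1 and Het animal 21.

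Deletion and antibody were compared with each other in the same way. In forebrain 0 of the 9 genes tested differed (edgeR; 1 at an unadjusted p under 0.05, 0 by DESeq2), where 0.0101% of all genes were called, 0.142% by DESeq2, and 3.07% had an unadjusted p under 0.05. In isolates 0 of 10 differed (edgeR; 3 at an unadjusted p under 0.05, 0 by DESeq2), where 0% were called, 0.144% by DESeq2, and 3.95% had an unadjusted p under 0.05. The 3 were Gpnmb, lower by 1.23 with deletion relative to the antibody (SE 0.383, interval -2.06 to -0.41, edgeR adjusted p 0.802), Itgax (-0.90, SE 0.345, edgeR adjusted p 1.00) and Axl (-0.55, SE 0.197, interval -0.98 to -0.13, edgeR adjusted p 0.942). In forebrain it was Spp1 (-1.85, SE 0.734), where Het animal 20 weighs. Over the isolates, as deviations from arm means, choroid plexus markers had r 0.60 with Gpnmb, 0.20 with Itgax and -0.80 with Axl. The part of these markers in the differences between deletion and antibody was not tested.

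Since homeostatic genes were lower in every loss arm, each DAM gene was also set against them as its log2 CPM less the mean log2 CPM of the homeostatic list in the same library. This measure was higher with loss of IL-34 for 10 of 10 genes in each of the 4 comparisons. In isolates Axl was at -2.83 in Het and -0.96 in KO, and at -2.84 with anti-gp120 and -0.84 with anti-IL34. Apoe was at 0.95 in Het and 2.94 in KO, and at 0.87 and 2.56 in the antibody arms. The median shift over the 10 genes was 1.39 in KO isolates, 1.46 in anti-IL34 isolates, 1.23 in KO forebrain and 1.41 in anti-IL34 forebrain. Forebrain Cst7, at 0 to 6 counts, rests here on the prior count of 0.5. The loss arm lay wholly above the control arm for 10, 8, 8 and 10 genes in the same order, beside 90%, 82.5%, 93.8% and 93.4% of all genes tested. The measure moves with the homeostatic list itself: of all genes tested, 98.7% to 99.8% had a log2 fold change above that list's median in these comparisons.

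The 10 genes did not vary as 1 set between animals. In the 15 isolates, after the mean of each arm was subtracted, the 45 pairs of genes had Pearson correlations from -0.81 to 0.87 with a median of 0.20, and 29 were positive. Cst7, Itgax, Spp1, Clec7a, Cd9 and Lpl went together, with the highest values for Cst7 and Spp1 (r 0.87, rho 0.73) and Cst7 and Itgax (r 0.84, rho 0.76), while Apoe went against them (Apoe and Itgax, r -0.81, rho -0.68). These are descriptions over 15 libraries that share preparation and differ in depth and purity.

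Markers of other cells moved with these genes, and their part was not tested. Apoe correlated with the mean of the 10 astrocyte markers (r 0.93, rho 0.80, r 0.86 without the 2 libraries farthest from the median of that mean). Itgax (r -0.88), Cst7 (-0.85), Lpl (-0.80), Clec7a (-0.77), Spp1 (-0.74) and Cd9 (-0.74) went against the astrocyte list and with the homeostatic list (r 0.71 to 0.83). Neuron markers went with Apoe (r 0.78) and against Lpl (-0.84), Cst7 (-0.80), Cd9 (-0.80), Spp1 (-0.79), Itgax (-0.79) and Clec7a (-0.76). Oligodendrocyte lineage markers had r 0.72 with Apoe and -0.46 to -0.76 with those 6 genes. Isolation stress genes had r -0.83 with Apoe, 0.85 with Itgax and 0.74 with Cd9, and neutrophil and monocyte markers 0.80 with Spp1, 0.79 with Itgax and 0.73 with Cst7. The stress genes summed to 7290.4 to 13102 CPM in Het, 3584 to 4327 CPM in KO, 8595 to 13340.5 CPM with anti-gp120 and 6235 to 9299 CPM with anti-IL34, so that KO lay wholly below Het. Axl followed neither the astrocyte nor the homeostatic list (r 0.21 and -0.03), nor did Gpnmb (r -0.08 and -0.06). Igf1 went with the border-associated macrophage list (r 0.83) and was the gene whose deviations in forebrain and isolate of an animal went together most (r 0.64, rho 0.67, where the other 9 ran from -0.39 to 0.44).

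**Figure D5:**
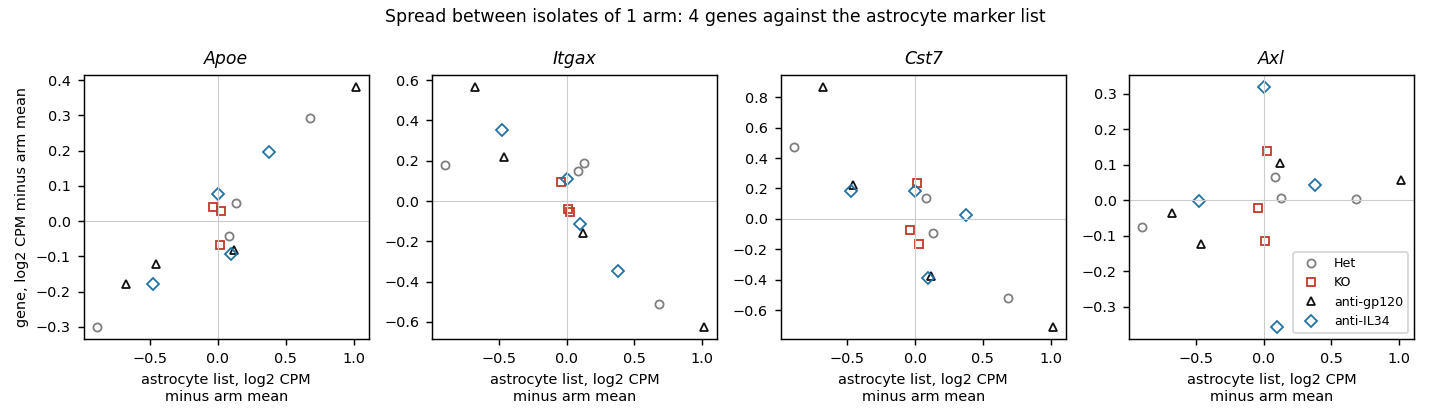
Deviation of 4 genes from their arm mean (y axis, log2 CPM) against that of the mean of 10 astrocyte markers (x axis, log2 CPM) in the 15 CD11b isolates, 1 symbol per library and 1 shape per arm. Apoe runs upward (r 0.93), Itgax and Cst7 downward (r -0.88 and -0.85), and Axl has no slope to speak of (r 0.21).

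The genes most like each member in the isolates were named by the 3 highest Pearson correlations over the 15 arm-centred libraries, among 12379 genes with a mean of at least 5 CPM. For Apoe they were Slc14a1 (r 0.95), Megf10 (0.94) and Mageh1 (0.94), of which the first encodes a urea transporter and the second a phagocytic receptor, both known from astrocytes. For Itgax they were Lsp1 (0.96), Phf8 and Antxr2 (0.95 each), for Cst7 Slamf9 (0.94), Trafd1 and Glipr1 (0.93 each), and for Spp1 they included Sp140 (0.94) and H2-T23 (0.93). Clec7a was most like Ero1b (0.96), Cd9 like Hnrnpc (0.97) and Lpl like Mtrex (0.96). For Igf1 the first was Cbr2 (0.88), itself on the border-associated macrophage list, followed by Cd4 and Nlrc4 (0.80 each). For Axl the first was Gm43737 (0.83) and for Gpnmb it was Wdr41 (0.90).

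Of 28 other genes of the DAM programme, 24 were tested in KO forebrain and 3 fell (edgeR): Trem2 (-1.17), its signalling partner Tyrobp (-1.40) and B2m (-0.28), with a list median of -0.14 against -0.00 for all genes, of which 0.62% passed. In KO isolates 5 of 27 fell and 0 rose, among them Trem2 (-1.56), Tyrobp (-1.26), Cd52 (-0.76) and Gusb (-0.93), with a median of -0.75 against 0.02, where 5.37% of all genes passed, and 0 genes passed without Het 20, Het 23, KO 3, KO 6 or KO 24. With the antibody Trem2 fell in forebrain (-1.23, 1 of 23) and Ctsd, a lysosomal protease, in isolates (-1.07, 1 of 27), where Trem2 just missed (-0.85, edgeR adjusted p 0.0557). The list medians were -0.10 and -0.19 against 0.00 and 0.06 for all genes, of which 0.717% and 0.626% passed. Trem2 is also on the homeostatic list, and Trem2 and Tyrobp are also on the list of partners described next.

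Ligands, receptors and partners of the 10 proteins made up a list of 32 genes, of which 31 were tested each time. In KO forebrain 5 fell and 0 rose: Itgb2, the partner chain of CD11c (-1.49), Trem2, Card9 (-1.30), Tyrobp and Syk (-0.58). Card9 and Syk signal downstream of Dectin-1. Clec7a and Itgax themselves were near the detection limit there, and whether they differed from these partners was not tested. In KO isolates 9 fell and 0 rose, led by Card9 (-1.55), Trem2, Tyrobp and Itgb3 (-1.21), an integrin chain that osteopontin binds. With the antibody 3 fell in forebrain, Trem2, Itgb5 (-0.67) and Syk (-0.86), and 0 passed in isolates by edgeR, where Itgb5 (-1.02, edgeR adjusted p 0.0554) and Trem2 came nearest. Gas6, the ligand of AXL, stood at -0.92 there (edgeR adjusted p 0.0579), the opposite sign to Axl. Over the 4 comparisons (KO forebrain, KO isolates, then the same with the antibody) the list medians were -0.09, -0.59, -0.09 and -0.30 against -0.00, 0.02, 0.00 and 0.06 for all genes, of which 0.62%, 5.37%, 0.717% and 0.626% passed. The 9 calls in KO isolates were all lost without any 1 of Het 20, Het 23, KO 3, KO 6 and KO 24.

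Among 21 transcription factors linked to microglia and to DAM genes, 20 were tested. Spi1 fell in KO forebrain (-0.95), and in KO isolates 6 fell and 0 rose, including Sall1 (-1.42), which maintains microglial identity, Spi1 (-1.24) and Rxra (-0.68). With the antibody 0 passed in either tissue by edgeR, with Spi1 (-0.91, edgeR adjusted p 0.0813) and Sall1 (-0.71) nearest in forebrain and Bhlhe41 (-1.13, edgeR adjusted p 0.0643) and Sall1 (-0.88) in isolates. Sall1 is also on the homeostatic list. In the same 4 comparisons the list medians were -0.07, -0.88, -0.10 and -0.58, beside the all-gene medians of -0.00, 0.02, 0.00 and 0.06 and call shares of 0.62%, 5.37%, 0.717% and 0.626%. The 6 calls in KO isolates were lost without any 1 of the same 5 animals. In isolates, leaving out 1 library moved the count over all genes from 976 to between 0 and 5756 in the genotype experiment, and from 110 to between 0 and 6905 in the antibody experiment.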

How the data were processed

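Whole forebrain and CD11b-positive isolates of 15 mice gave 30 libraries (TRIzol, SMART-Seq v4, per the labels' protocols). The deposited table holds raw read counts per gene. Per the submitters' processing notes the tools included STAR 2.7.5c, featureCounts 1.6.3 and R 4.4.0 with GRCm38; whether counting used strand is not given in the sources used here. Values in 6 further sample columns were not used. Totals were 15.1 to 75.2 M counts per library, and these cover counting precision only.

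The members and lists were chosen with earlier results of these data known. edgeR 4.0.16 (R 4.3.3) quasi-likelihood tests with TMM scaling, filterByExpr, a term for sex, and p-values adjusted after Benjamini and Hochberg across every gene tested gave each comparison, at a threshold of 0.05. Log2 CPM used a prior count of 0.5. DESeq2 1.42.0, RLE scaling, no filter, no sex term, a joint fit and leaving out each animal were alternatives. The edgeR fits of KO against Het were tested on simulated data. Members are named throughout; genes most like each are its 3 highest correlations. Some single-gene values are not reported here. Samples were grouped by the labels. Within an arm, the forebrain and isolate of a number are the same animal; numbers 1 (Het, anti-gp120) and 24 (KO, anti-IL34) each name 2 different mice. In each animal the deviations of both libraries from group means correlated with a median r of 0.202 (0.0907 to 0.345, over 0.1 in 13 of 15 animals). Exon lengths came from GENCODE M21, since the deposited gene length is the gene's span for 51183 of 51498 matched genes. Python 3.11.15 with pandas 2.3.3 and matplotlib 3.10.9 made the tables and figures.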

Additional observations from a re-analysis of the deposited data

Results flagged for a closer look

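Of 60 sets of 4 libraries (a gene in an arm of 4 in 1 tissue), 4 held a library far from the others by Dixon's criterion, which chance meets in about 1 of 20. Apoe in anti-gp120 animal 15 was flagged in both tissues, at 434.6 CPM in forebrain, below the 627 to 663 CPM of the other 3, and at 2268 CPM in the isolate, above their 1537 to 1644 CPM. That isolate also had the highest astrocyte marker sum of its arm, at 18008 CPM, and its part was not tested. Axl in the forebrain of anti-IL34 animal 2 stood at 43.9 CPM, above 35.2 to 36.6 CPM. Itgax in the isolate of Het animal 1 stood at 10.3 CPM, below 16.3 to 16.8 CPM.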

How the results depend on the processing

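Over the single-gene results, 1095 values under alternatives kept their direction and side of the threshold, 31 came under the threshold, 5 lost it and 79 changed sign. The number of the 10 genes called in KO forebrain was 0, and 3 without a filter on low counts (Apoe, Spp1 with edgeR adjusted p 4.50e-34, Cd9), 1 with DESeq2 and 0 to 1 with an animal left out. Spp1 had an edgeR adjusted p of 0.463 in the main fit, and a log2 fold change of -0.42 without Het animal 20. In KO isolates it was 0, 1 with DESeq2 and 0 to 1 with an animal left out. In anti-IL34 isolates it was 0, and 1 without a filter, 2 with DESeq2, 1 without sex, 1 in the fit over 15 libraries and 0 to 2 with an animal left out. In anti-IL34 forebrain it was 0 throughout. For isolates against forebrain it was 9, and 8 to 10 with an animal left out. The genotype interaction gave 0, 2 with DESeq2, 1 without sex and 0 to 2 with an animal left out. The antibody interaction gave 0, 1 without a filter, 2 with DESeq2, 1 without sex and 0 to 2 with an animal left out. Deletion against antibody in forebrain gave 0, and 1 without a filter. With an animal left out, calls over all genes ran from 55 to 117 in KO forebrain and 0 to 5756 in KO isolates. They ran from 0 to 6905 in anti-IL34 isolates, and from 0 to 5688 and 0 to 5565 in the genotype and antibody interactions. Shares of all genes without a filter or in the fit over 15 libraries are not given here. The counts of the 10 genes are therefore not read as particular to them. The cause of the shifts in these counts was not tested.

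The 79 sign changes fell in 29 of 85 gene results, 27 of them with an animal left out; none of the 29 had passed the threshold and no changed value did. For those 27 the log2 differences below are ranges over all alternatives, left-out animals and other settings together, and each spanned 0. In KO forebrain Lpl ran from -0.0045 to 0.13, Gpnmb from -0.16 to 0.064 and Igf1 from -0.22 to 0.081. In KO isolates Spp1 ran from -0.35 to 0.049 and Igf1 from -0.22 to 0.19. In anti-IL34 forebrain Lpl ran from -0.096 to 0.062, Spp1 from -0.16 to 0.58, Gpnmb from -0.24 to 0.26 and Igf1 from -0.28 to 0.12. In anti-IL34 isolates Lpl ran from -0.13 to 0.24, Cst7 from -0.023 to 0.75, Spp1 from -0.97 to 0.23 and Clec7a from -0.14 to 0.63. In the genotype interaction Cst7 ran from -1.55 to 2.84 and Igf1 from -0.059 to 0.30. In the antibody interaction Lpl ran from -0.10 to 0.33, Itgax from -0.27 to 0.26, Cd9 from -0.29 to 0.11 and Igf1 from -0.29 to 0.0080. For deletion minus antibody in forebrain Apoe ran from -0.034 to 0.11, Itgax from -0.37 to 0.50, Clec7a from -0.63 to 0.13, Gpnmb from -0.34 to 0.15, Cd9 from -0.081 to 0.051 and Igf1 from -0.18 to 0.21. For deletion minus antibody in isolates Spp1 ran from -0.23 to 0.70 and Cd9 from -0.34 to 0.015. Under other settings, Igf1 in KO isolates was 0.0072 with RLE scaling, 0.030 without a filter and 0.0072 with DESeq2. In anti-IL34 forebrain Axl was 0.00035 and Gpnmb 0.041 without sex, and Gpnmb 0.015 in the fit over 15 libraries. For deletion minus antibody in forebrain Apoe was -0.030 and Igf1 -0.012 without sex, and Cd9 0.0058 without a filter. Igf1 between tissues was -0.12 in anti-gp120 animals alone, a fit added after seeing the data. Over all genes, calls in KO isolates went from 976 to 3807 with DESeq2 and 2189 without sex, and in anti-IL34 isolates from 110 to 2020 and 983.

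With the animal as replicate block, 9 genes differed between tissues and 0 in both interactions, as without it. Over all genes the block took the genotype interaction from 599 to 0 and the antibody interaction from 17 to 0.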
